A study of Arabidopsis thaliana with 27 samples.

Results

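A group of Arabidopsis thaliana transcripts was high for a short time early in the formation of tracheary elements, water-conducting xylem cells that die once their thickened walls are built. The group was chosen by its own values: the mean of the 3 arrays at 12 h had to lie at least 3 log2 units above the mean at 0 h and at least 3 above the mean at 24 h. Of 22743 probe sets tested, 121 met both conditions and are the members described here. A further 9 probe sets met them but were set aside by gene name, namely those for GSTU22, GSTU25, LTI30, OCT5, GH3.3, UGT73B4, UGT73B5, UGT84A3 and 1 probe set shared by UGT73B2 and UGT73B3. The differences at 12 h against 0 h and 24 h are therefore a description of how the members were picked, and no test of them is given.

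Cells of a habituated suspension culture of ecotype Col-0, which grows without added hormones, were moved when 7 days old into fresh medium with the auxin NAA, the cytokinin BAP and epibrassinolide, a brassinosteroid. Total RNA was taken at 9 times, 12 h apart and ending at 96 h, and read on single-colour Affymetrix arrays. There were 3 time-courses, here A, B and C as in the labels, and so 3 arrays a time and 27 in all. All groups share the ecotype, the culture and the sucrose-containing medium, and they differ in the time since the transfer; no culture moved into medium without the hormones was analysed here. Every array holds RNA of a whole culture, so that fewer cells using a gene and less RNA per cell cannot be told apart. The labels describe the 0 h cells as undifferentiated and dividing.

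When plant cells meet foreign chemicals or reactive compounds, a detoxification programme is known to come on within hours: reductases and oxidases modify the compound, glucosyl, glutathione and acyl transferases conjugate it, and membrane transporters move the product out of the cytosol. Added auxin is itself inactivated, by oxidation, by glucosylation and by attachment to amino acids. Small heat shock proteins, which hold unfolding proteins in solution, and WRKY transcription factors, which act in defence and senescence, are other classes with short bursts of transcript after stress. These are textbook roles and not results of the arrays.

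The values are RMA log2 values, in which a difference of 1 is a doubling of signal and values near 0 lie at the floor of the scale. Levels of different probe sets are not set against each other, because probes differ in how brightly they bind. Array medians lay between 0.85 and 1.00, and between 272 and 978 values on each array were exactly 0, so that a difference that starts from the floor is understated. Correlations between arrays of 1 time were 0.936 or higher. The 3′ minus 5′ difference of the GAPDH control, which grows as RNA is degraded, in the order A, B, C was 0.53, 3.74 and 1.5 at 0 h, against 1.05, 0.73 and 0.37 by 12 h and 0.35, 1.89 and 0.49 by 24 h. Later it was highest in B, at 4.38 at 60 h, 3.29 at 72 h, 3.91 at 84 h and 2.99 at 96 h. At these times it was 0.36, 0.88, 0.60 and 1.65 in A and 1.77, 1.41, 1.33 and 1.41 in C. Of 24 marker genes of tracheary elements, dividing cells and photosynthetic cells, 8 had a probe set of their own. Of the wall genes among these, IRX15, which acts in xylan synthesis, had a mean of 0.62 at 0 h, 0.78 at 12 h and 3.34 at 72 h. Its relative IRX15-L went from 4.47 to 1.16 and back to 4.00 at these times, and PRX52, a peroxidase tied to lignin, from 1.27 at 0 h to 3.91 at 12 h and 7.05 at 48 h. The mitotic kinase AUR1 stood at 5.20 at 0 h, 1.85 at 12 h and 3.96 at 24 h, so that its means moved opposite to those of the members, and AUR2, of the same family, stood at 4.73, 1.86 and 3.65. The photosynthesis genes differed among themselves: at 0 h and 12 h LHCB4.1 stood at 2.58 and 2.19, CaS at 3.40 and 0.50 and PSBY at 3.39 and 3.61. The part of these levels in the members' changes was not tested.

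Of the 121 members, 55 carry 1 gene in the array annotation, 2 carry a pair of genes and 64 are not listed there and remain unnamed. The members were 3.00 to 7.89 log2 units above 0 h at 12 h, with a median of 4.00, and 3.00 to 7.59 above 24 h, with a median of 3.89. Over all 22743 probe sets the median differences were 0.00 and -0.04. In limma's fit to all arrays, 8.48% of all probe sets were called higher at 12 h than at 0 h and 8.67% lower, and 7.29% were called higher at 12 h than at 24 h, at a Benjamini-Hochberg adjusted p under 0.05. All 121 members were among those called higher in both comparisons, which the rule all but required. The unnamed members resembled the named ones in size, with medians of 4.1 and 3.92 above 0 h.

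At 24 h the members stood near where they had started. Their means at 24 h differed from those at 0 h by a median of 0.11, and 102 of the 121 lay within 1 log2 unit of 0 h. Another 15 were still at least 1 above 0 h, and 4 had gone at least 1 below. The quartiles of this difference were -0.24 and 0.46 over the members, against -0.18 and 0.20 over all probe sets. At 0 h 50 of the 121 (41.3%) had a mean below 1, near the floor, against 50.7% of all probe sets. The threshold cut through a continuous range: the members closest to it were an unnamed probe set with 3.00 at 12 h against 0 h, AT2G04795 with 3.00 against 24 h and another unnamed probe set with 3.00 against 24 h. The nearest probe sets outside were an unnamed one with 3.00 (2.998), AT1G75600 with 2.99 and AT2G41730 with 2.96.

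**Figure D1:**
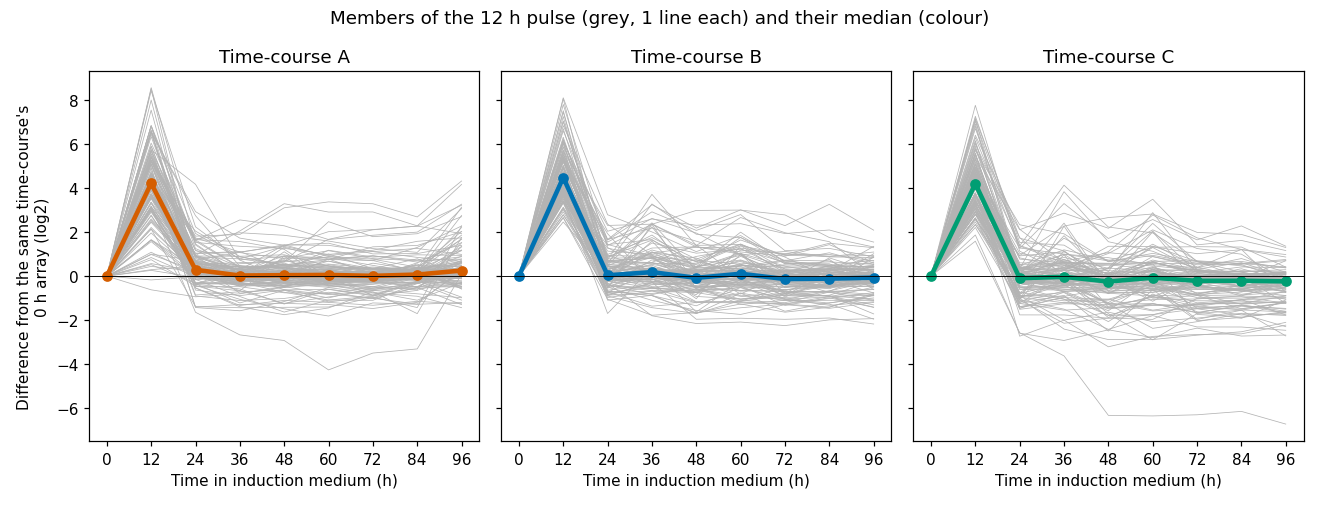
Change of the 121 members over time in each time-course. The x axis gives hours in induction medium and the y axis the difference of each array from the 0 h array of the same time-course in log2 units; grey lines are members and coloured lines with points their medians. The median stands 4.21 above 0 h at 12 h in time-course A, 4.48 in B and 4.19 in C and lies near 0 from 24 h on, and in A several grey lines show no peak.

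The largest difference among members belonged to an unnamed probe set, 262518_at, which was 7.89 above 0 h at 12 h. It stood at 1.84, 1.47 and 2.5 at 0 h in time-courses A, B and C, at 10.26, 9.57 and 9.67 at 12 h and at 4.08, 4.26 and 4.23 at 24 h. Its 12 h arrays lay above every other array, as in 111 of the 121 members, and its return was partial. Values of 3 arrays are given in the order A, B, C from here on. Another unnamed probe set, 258094_at, stood at 0.30, 0.57 and 0.51 at 0 h, at 8.81, 8.08 and 7.62 at 12 h and at 0.52, 0.53 and 0.69 at 24 h, back at the floor. Among named members the largest difference was that of AT3G26470, which encodes a protein with an RPW8 domain, a domain of plant disease resistance proteins. It stood at 0.25, 0.42 and 0.33 at 0 h, at 7.09, 8.22 and 8.09 at 12 h and at 1.67, 1.72 and 1.46 at 24 h. Its neighbour on chromosome 3, AT3G26450, with 1 coding gene between, is also a member and is described with the genes that differed between time-courses. The other members among the 8 with the largest differences from 0 h were 3 unnamed probe sets, at 6.98 to 7.55, and AT4G13180 and AT1G14130, described next.

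Genes of auxin inactivation were members. AT1G14130 encodes the dioxygenase DAO1, which oxidises indole-3-acetic acid. It stood at 2.28, 1.94 and 2.69 at 0 h, at 8.84, 8.77 and 8.68 at 12 h and at 5.03, 4.30 and 4.44 at 24 h. The 3 time-courses were close together at 12 h, and at 24 h the gene still stood 2.29 above 0 h, the highest remainder of any member. IAGLU, a glucosyltransferase that attaches glucose to indole-3-acetic acid, stood at 0.76, 0.91 and 0.89 at 0 h, at 7.21, 6.52 and 6.67 at 12 h and at 1.66, 0.98 and 1.31 at 24 h. Its mean at 12 h was 5.94 ± 0.17 (standard error of the fit, n = 3) above 0 h and it was within 1 of 0 h at all later times. GH3.3, which joins auxin to amino acids and which the rule sets aside by name, was 6.14 above 0 h and 3.61 above 24 h at 12 h.

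Reductases and other oxidoreductases formed another group. AER, an alkenal reductase that detoxifies reactive carbonyl compounds, stood at 4.23, 5.36 and 4.74 at 0 h, at 9.80, 9.07 and 8.99 at 12 h and at 5.16, 5.37 and 5.35 at 24 h. AT5G16980, the coding gene next to it on chromosome 5 and a member of the same reductase family, stood at 0.79, 0.96 and 1.05, then 7.62, 6.98 and 6.85, then 2.72, 1.64 and 2.44. A probe set that AT5G16980 shares with AT5G17000, a further member of the family, stood at 0.44, 0.58 and 0.82, then 3.61, 4.24 and 4.24, then 1.03, 0.55 and 0.85. All 3 probe sets were higher at 12 h in every time-course, which the rule favours. Because the genes are close relatives, their probes may read each other's transcripts.

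AT4G13180, a short-chain dehydrogenase, stood at 0.60, 0.42 and 0.57 at 0 h, at 6.03, 7.43 and 7.83 at 12 h and at 2.24, 1.26 and 2.10 at 24 h. It was lower in A than in B and C at 12 h, and at 60 h in C (3.45) and 96 h in A (2.62) single arrays stood above the others. AT3G44190, a FAD-dependent oxidoreductase, stood at 5.54, 5.53 and 5.64 at 0 h, at 10.04, 8.63 and 8.23 at 12 h and at 4.91, 5.27 and 5.30 at 24 h. Here A was the highest time-course. AT5G64250, of the nitronate monooxygenase family, stood at 3.23, 2.76 and 3.76, then 8.18, 7.64 and 8.08, then 1.8, 1.9 and 2.0, with a 24 h mean -1.35 from its 0 h mean. AT5G16010, related to steroid 5-alpha-reductases, is described with the later times.

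The MATE family exports organic compounds and metabolite conjugates out of the cytosol, and 4 of its genes were members. AT1G71140 stood at 0.19, 0.38 and 0.30 at 0 h, at 5.44, 4.94 and 4.88 at 12 h and at 1.04, 0.84 and 1.13 at 24 h. AT5G65380 stood at 0.76, 0.74 and 0.90, then 4.29, 4.80 and 4.58, then 1.43, 1.18 and 0.44. Both started near the floor. AT3G21690 stood at 1.95, 1.86 and 2.57, then 5.31, 5.58 and 5.84, then 1.42, 1.82 and 1.68, and AT1G33110 at 0.99, 2.25 and 2.27, then 4.35, 5.04 and 5.35, then 1.52, 1.75 and 1.54. All 4 were higher at 12 h in every time-course, which the rule favours. They stood 3.08 to 4.80 log2 units above 0 h at 12 h, and all 4 were within 1 of 0 h at 24 h. At later times the last pair fell below their start, with means as low as -1.5 against 0 h.

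Of 5 transferases, GT72B1, a glucosyltransferase known to act on foreign phenols, stood at 0.68, 0.74 and 3.09 at 0 h, at 5.08, 5.30 and 4.96 at 12 h and at 0.33, 0.30 and 0.50 at 24 h. Its 0 h arrays lay far apart, with C high. The methyltransferase-family gene AT2G41380 stood at 0.10, 0.57 and 1.14, then 5.36, 5.47 and 5.97, then 0.91, 0.73 and 1.24. AT5G10830, of the same broad class, was 3.58 above 0 h at 12 h, and the acyltransferase-family gene AT5G07860 was 3.37 above. AT4G24160, which acts in phospholipid metabolism, stood at 4.09, 4.01 and 4.17, then 7.61, 7.70 and 7.76, then 4.17, 4.64 and 4.53, with the 3 time-courses close together at each of these times.

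Transcription factors among the members were WRKY6, WRKY22, the B-box protein AT2G47890 and the zinc-binding PLATZ protein AT1G21000. WRKY6, known from senescence and defence, stood at 0.77, 1.25 and 1.13 at 0 h, at 5.83, 5.09 and 4.67 at 12 h and at 0.97, 1.57 and 1.11 at 24 h. WRKY22, known from immune signalling, stood at 1.16, 1.12 and 0.81, then 4.29, 4.14 and 4.23, then 0.83, 0.97 and 1.13. AT2G47890 stood at 1.28, 1.29 and 1.71, then 5.81, 6.81 and 7.06, then 2.15, 1.76 and 2.08. Each was higher at 12 h in every time-course, which the rule favours. WRKY6 later stood above its start, at 1.70, 2.56 and 2.25 at 48 h and 2.79, 2.54 and 2.11 at 96 h. AT1G21000 was less even, at 3.89 at 12 h in A and 6.03 and 5.73 in B and C.

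The tetraspanins TET8 and TET3 are membrane proteins, and TET8 is known as a marker of extracellular vesicles. TET8 stood at 3.36, 3.79 and 3.64 at 0 h, at 7.5, 7.52 and 7.4 at 12 h and at 3.79, 3.11 and 2.47 at 24 h. TET3 stood at 0.78, 0.95 and 1.52, then 2.99, 4.86 and 4.72, then 0.97, 0.31 and 0.56. The 12 h arrays of both lay above all arrays of the other times, as in 111 of the 121 members. From 36 h on both had means below their 0 h level, at -0.24 to -1.33.

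Hydrolases among the members included BGLU28, a beta-glucosidase linked to glucosinolate breakdown and sulphur shortage, and the class V chitinase ChiC. BGLU28 stood at 0.00, 0.73 and 0.38 at 0 h, at 5.37, 7.33 and 6.68 at 12 h and at 1.62, 2.39 and 1.64 at 24 h. It did not return to its start, with later means 1.93 to 3.03 above 0 h. ChiC stood at 0.22, 0.69 and 0.63, then 3.21, 4.31 and 4.30, then 0.67, 0.62 and 0.35. SUFE2, a sulphur-transfer activator of iron-sulphur cluster assembly, stood at 1.78, 1.06 and 1.07, then 3.92, 5.51 and 5.71, then 0.39, 0.21 and 0.57, below its start at 24 h in every time-course.

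Other named members lay outside these classes. AT5G61820, a Nod19-like protein, stood at 5.01, 5.48 and 6.66 at 0 h, at 10.69, 10.66 and 10.34 at 12 h and at 5.61, 5.78 and 6.17 at 24 h. Its 12 h arrays lay above all others. AT4G01870 and AT1G21680, a pair of TolB-related proteins, were 5.12 and 5.23 above 0 h at 12 h. Of the 57 members with a listed gene, 32 fall into the 9 role groups used here (auxin inactivation, alkenal reductases, other oxidoreductases, MATE transporters, transferases, small heat shock proteins, transcription factors, tetraspanins and hydrolases), which were drawn up after the members were known.

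**Figure D2:**
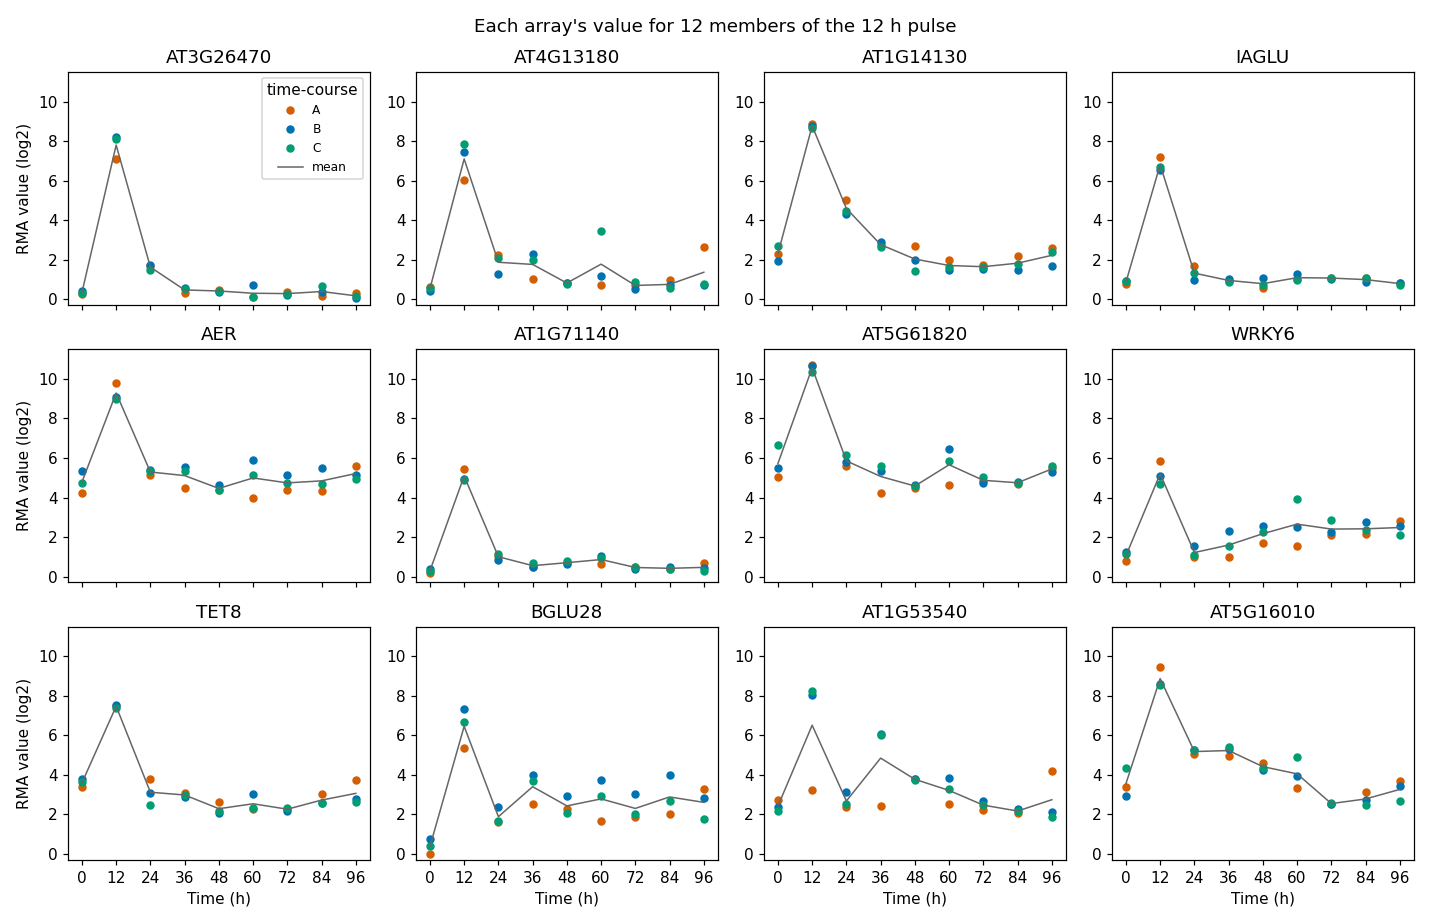
Values of 12 members on every array. In each panel the x axis is time in hours and the y axis the RMA log2 value; points are arrays of time-courses A, B and C and the line joins the means. All panels peak at 12 h, AT1G14130 returns in steps, BGLU28 stays above its start, and AT1G53540 lacks the 12 h peak in A (3.23 against 8.06 and 8.26).

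Relatives of the members and genes of related responses were taken from 14 lists of gene symbols. Among WRKY factors 7 were measured, WRKY6 and WRKY22 are members, and 0 of the other 5 were called at 12 h against 0 h by limma at an adjusted p under 0.05, with a median difference of 0.01 and 0 at an unadjusted p under 0.05. Among 24 cytochrome P450 genes, which oxidise hormones and foreign compounds, 1 was called higher, CYP71B6 by 0.88 ± 0.24 (SE, adjusted p = 0.0105 by limma), and 1 lower, CYP71B28 by -0.75 ± 0.20 (adjusted p = 0.0115), against 8.48% and 8.67% of all probe sets. Among 13 glutathione transferases 3 were called higher, GSTU22 and GSTU25 among them, and 1 lower, GSTL3. Of 12 dehydration and cold proteins 4 were called higher and 1 lower, with RD2, a dehydration-induced gene, 2.88 ± 0.21 above 0 h and 3.14 ± 0.21 above 24 h at 12 h, just outside the rule. Of 12 auxin response genes 3 were called higher, GH3.3, IAA30 and IAA18, and of 6 cytokinin genes 1, ARR15, 2.21 ± 0.24 above 0 h. ARR15 did not share the return, at 0.41 ± 0.24 between 12 h and 24 h (adjusted p = 0.361 by limma). AT5G52050, the single MATE gene with a DTX name in the table, was 1.38 ± 0.42 above 0 h (adjusted p = 0.0241 by limma). Of 2 heat shock genes 1 was called higher, HSA32, and of 2 MYB factors 1 was called lower, AT5G47390, while 0 of 2 jasmonate genes, 0 of 1 ethylene gene and 0 of 1 NAC factor were called by limma (1, 0 and 0 at an unadjusted p under 0.05). The lists of ABC transporters and of abscisic acid genes had 0 genes with a symbol in the annotation.

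The pulse was shared by the time-courses for most members but not for all. In 118 of the 121 the 12 h array was above the 0 h and the 24 h array in all 3 time-courses, and in 58 both differences were at least 3 in all 3. These counts describe arrays that picked the members, and the rule itself favours a difference in every time-course. The mean at 12 h was the highest of the 9 times for all 121. Members that stood at least 3 above 0 h numbered 91 in A, 115 in B and 102 in C. The 11 members with a difference of less than 1 between 12 h and 0 h in some time-course had it in A. In A these 11 ranged from -0.62 to 1.00, while in B they ranged from 3.77 to 6.31 and in C from 4.15 to 6.70. At 12 h the B and C values lay within 1 of each other in 118 of the 121.

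Relative to the mean of B and C, 21 of the 121 members (17.4%) were lower in A by at least 2 at 12 h, against 0.734% of all probe sets, and 2 (1.65%) were higher by at least 2, against 0.321%. Both shares concern genes picked on these same arrays, and a rule on means of 3 can be met by a gene that is high in only some of the time-courses, so no test is given. The 3′ minus 5′ GAPDH difference at 12 h was highest in A (1.05, against 0.73 and 0.37). By a second pair of GAPDH control probe sets A was not the highest, at 0.27 against 0.30 in B and -0.32 in C. The part of RNA degradation in these values was not tested.

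Of the 4 small heat shock members, 3 were lower in A by at least 2 at 12 h. AT1G53540, a class I small heat shock protein of the cytosol, stood at 2.71, 2.38 and 2.18 at 0 h, at 3.23, 8.06 and 8.26 at 12 h and at 2.39, 3.13 and 2.52 at 24 h. In B and C it was high again at 36 h, at 6.09 and 6.01, where A stood at 2.45, and at 96 h A was the highest with 4.22 against 2.12 and 1.89. AT2G29500, of the same class, stood at 1.76, 0.73 and 1.16 at 0 h, at 4.53, 8.18 and 7.98 at 12 h, at 1.41, 1.37 and 1.25 at 24 h, at 0.54, 3.15 and 3.57 at 36 h and at 4.03, 0.38 and 0.74 at 96 h. Both genes thus had a second, smaller peak at 36 h in B and C and were high at 96 h in A. AT1G52560, a small heat shock protein of organelles, stood at 0.44, 0.38 and 0.24 at 0 h, at 0.70, 5.87 and 5.75 at 12 h and at 1.77, 0.39 and 0.23 at 96 h, with no second peak at 36 h. AT2G19310, an HSP20-like protein, was closer between time-courses, at 4.72, 3.78 and 5.41 at 0 h, at 7.16, 8.26 and 7.87 at 12 h and at 4.90, 6.15 and 5.88 at 36 h.

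Other members low in A at 12 h came from unrelated families. AT5G51500, a pectin methylesterase that modifies the cell wall, stood at 0.31, 0.30 and 0.30 at 0 h and at 0.61, 5.63 and 5.64 at 12 h. A probe set shared by the alliinase-related genes AT1G34040 and AT1G34060 stood at 0.11, 0.36 and 0.38 then at 0.68, 5.01 and 5.32. Both were near the floor in A at both times. The Bet v 1-like gene AT3G26450 stood at 1.08, 4.89 and 5.10 at 12 h, the carboxylesterase AT1G68620 at 1.91, 4.70 and 5.10, and the lectin-domain gene AT5G03700 at 2.71, 4.98 and 5.65. The 3 members with the widest spread at 12 h, AT1G52560 and a pair of unnamed probe sets, had SDs of 2.95 to 3.68. The widest was the unnamed 247691_at, at 3.01, 2.81 and 3.23 at 0 h, at 2.39, 8.67 and 8.83 at 12 h and at 2.2, 5.16 and 5.5 at 36 h. In the opposite direction AT3G29220 stood at 4.83, 3.09 and 3.01 at 12 h, and AT5G17760, an AAA-type ATPase, at 4.4, 3.5 and 3.3.

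**Figure D3:**
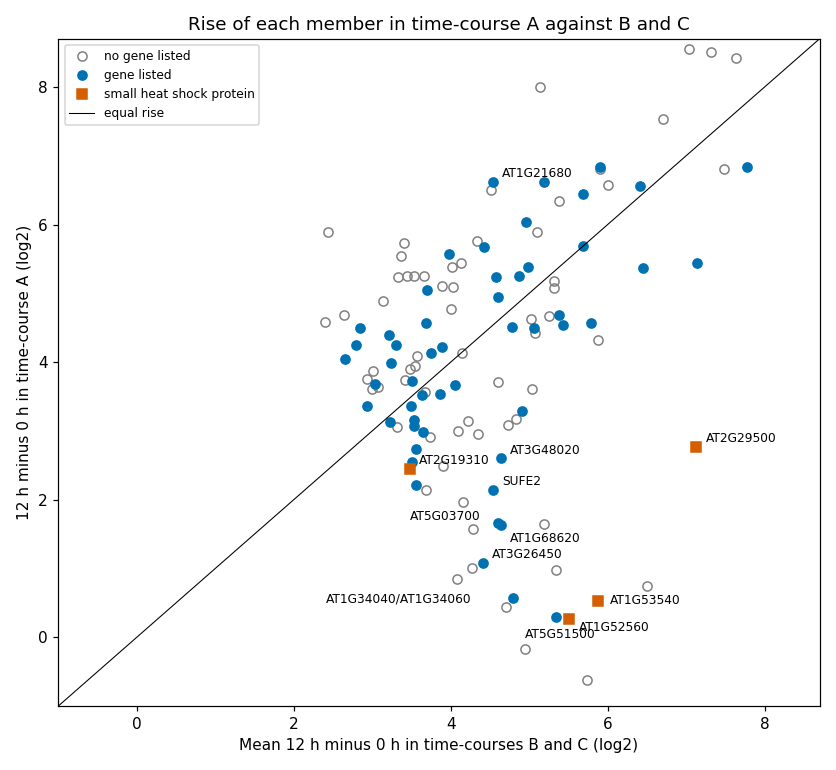
Difference between 12 h and 0 h of each member in log2 units, in time-course A (y axis) against the mean of B and C (x axis). Open circles are probe sets with no gene listed, filled circles those with a gene and squares the 4 small heat shock genes, and the line marks equal differences; AT1G53540, AT1G52560 and AT5G51500 lie near 0 in A and above 5 in B and C.

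The time-courses also allowed the rule to be read in arrays that had not picked the genes. When the rule was applied to A and B alone, 112 probe sets met it, and in C they stood a median of 3.76 above 0 h and 4.17 above 24 h at 12 h. Both differences reached 3 in C for 84 of the 112 (75%) and 1 for 111. With A and C choosing, 109 met it, the medians in B were 4.44 and 4.29, and both differences reached 3 for 89 (81.7%) and 1 for 108. With B and C choosing, 147 met it, but in A the medians were 3.29 and 2.99, both differences reached 3 for 66 (44.9%) and 1 for 107 (72.8%), and 12 were no higher at 12 h than at 0 h. Over all probe sets the medians of these differences lay between -0.05 and 0.01. A was thus the time-course in which genes picked in the other two were least often high.

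After 24 h most members stayed near their 0 h level. Means lay within 1 log2 unit of 0 h for 96 of the 121 at 36 h, 98 at 48 h, 97 at 60 h, 101 at 72 h, 103 at 84 h and 108 at 96 h, and for 80 at all 6 of these times. The share of all probe sets within 1 of 0 h was not counted. At 36 h the quartiles of the difference from 0 h were -0.34 and 0.55 over the members, against -0.20 and 0.20 over all probe sets. At 96 h they were -0.38 and 0.32, against -0.16 and 0.15. Standing near 0 h was thus not particular to the members. The 0 h arrays took part in choosing the members, so these distances are descriptions. At some later time 6 members stood at least 2 above 0 h and 3 at least 2 below. The named ones above were BGLU28, AT1G53540 and AT5G14730. AT5G14730 stood at 1.89, 1.64 and 1.48 at 0 h, at 6.58, 6.98 and 6.92 at 12 h, at 3.57, 3.28 and 3.59 at 24 h and at 3.86, 4.56 and 4.34 at 36 h. It thus returned only part of the way in all 3 time-courses. The named one below was AT1G21680, at 1.72, 2.73 and 4.24 at 0 h, at 8.34, 7.69 and 8.36 at 12 h and at 0.46, 1.06 and 1.03 at 48 h.

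At 96 h A stood apart: 26 of the 121 members (21.5%) were at least 1 above the mean of B and C there, against 6.07% of all probe sets. A was at least 1 below the mean of B and C in 18 members (14.9%, against 2.48% of all) at 0 h, in 17 (14.0%, against 1.07%) at 36 h and in 17 (14.0%, against 3.86%) at 60 h. A lower 0 h array makes the 12 h difference in A larger for the 18. The 3′ minus 5′ GAPDH difference was highest in B at 0 h, 60 h and 96 h (3.74, 4.38 and 2.99), and its part in these shares was not tested.

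The arrays from 36 h to 96 h took no part in the choice and were tested. The tests are not independent of the choice, however. The fit to all arrays pools the spread over times, so the earlier arrays that chose the members also set its standard errors. The SD at 12 h had a median of 0.60 over the members, against 0.17 over all probe sets. A wide spread at 12 h makes a later call of that member less likely in this fit. In 72 h against 48 h, wall deposition against the time before it by the labels, limma called 1 of the 121 members and 0.44% of all probe sets, and in 96 h against 48 h 1 and 1.24%. At an unadjusted p under 0.05 the counts were 5 and 12 members, while 5.92% and 10.6% of all probe sets passed. In this fit the members' counts were thus near the background, which its pooled spread keeps from being read as a lack of later change. In a fit to the compared times alone they were 24 and 17, with 4 and 0 members called, against 0.967% and 0.281% of all probe sets. The share of all probe sets at an unadjusted p was not counted for that smaller fit, so the 24 and 17 cannot be set against a background. In the fit to all arrays, a moderated F test over the 6 later times called 1 member and 2.91% of all. The members' median differences were -0.02 for 72 h against 48 h and 0.07 for 96 h against 48 h, against -0.01 and -0.01 over all probe sets.

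AT5G16010, related to steroid 5-alpha-reductases, was the member called between 48 h and 72 h and over the later times. It stood at 3.40, 2.94 and 4.33 at 0 h, at 9.44, 8.62 and 8.55 at 12 h, at 5.06, 5.24 and 5.24 at 24 h and at 4.97, 5.30 and 5.43 at 36 h. At 48 h it stood at 4.62, 4.27 and 4.37, and at 72 h at 2.53, 2.54 and 2.59, lower in 3 of 3 time-courses without overlap. The difference was -1.87 ± 0.35 log2 units (SE, n = 3, adjusted p = 0.0121 by limma), with an adjusted p of 2.26e-04 in the F test. The pairwise call did not hold without time-course A, B or C (adjusted p = 0.067, 0.578 and 0.0543), and the F call did not hold without B (adjusted p = 0.171).

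AT3G23060 was the member called between 48 h and 96 h. It stood at 1.47, 1.44 and 1.32 at 0 h, at 5.97, 6.46 and 6.41 at 12 h and at 2.10, 2.15 and 2.09 at 24 h. At 48 h it stood at 1.00, 1.28 and 1.42, and at 96 h at 2.63, 2.28 and 2.07, higher in 3 of 3 time-courses. The difference was 1.09 ± 0.27 (SE, n = 3, adjusted p = 0.0479 by limma), close to the threshold. It did not pass after quantile normalization (adjusted p = 0.0757), in a fit to the 6 compared arrays alone (adjusted p = 0.0995), or without A, B or C (adjusted p = 0.0711, 0.257 and 0.588).

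With the time-course letter as a block, the F test over the later times called 3 members, AT5G16010, AT3G23060 (adjusted p = 0.0345 by limma) and AT1G14130 (adjusted p = 0.0226 by limma), against 6.72% of all probe sets, and the pairwise counts did not move. Leaving out time-course A changed these counts. Without its arrays the F test called 23 members, against 7.58% of all probe sets, and 96 h against 48 h called 8 members, against 3.43% of all, among them SUFE2 (1.54, adjusted p = 2.41e-04 by limma), AT1G53540 (-1.75, adjusted p = 2.84e-04 by limma) and AT5G14730 (-1.10, adjusted p = 0.00338 by limma). In A, at 48 h and 96 h, SUFE2 moved little, at 0.36 and 0.49. AT1G53540, at 3.81 and 4.22, and AT5G14730, at 3.75 and 4.97, went the other way in A. AT5G35735 was also called without A (0.96, adjusted p = 0.018 by limma) and went the same way in A, at 4.30 and 4.85. The remaining members called were unnamed. The 12 h array of A also enters the pooled spread, and the parts of its early and later arrays in these counts were not tested.

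**Figure D4:**
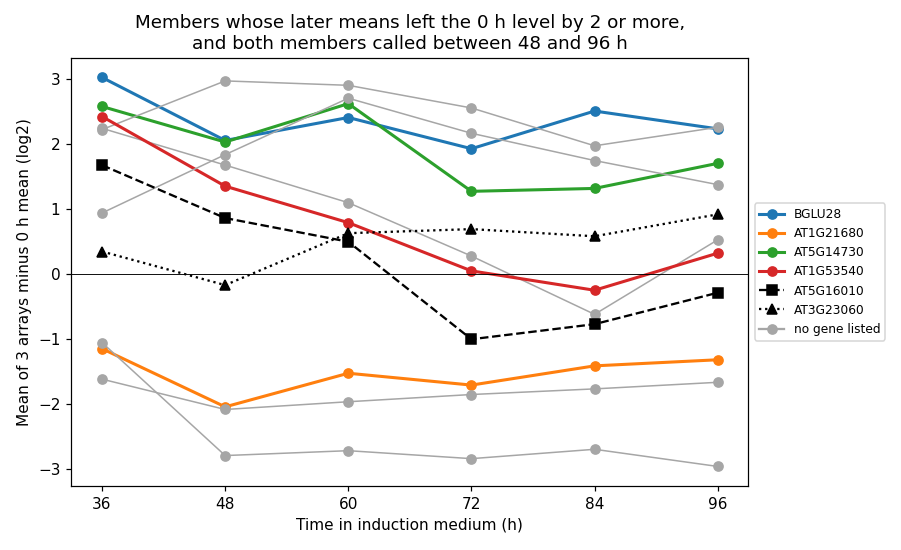
Later course of the 9 members whose means left the 0 h level by at least 2 log2 units, with AT5G16010 and AT3G23060. The x axis is time in hours from 36 h to 96 h and the y axis the mean of 3 arrays minus the 0 h mean; BGLU28 stays between 1.93 and 3.03 above 0 h, and AT5G16010 lies 1.68 above 0 h at 36 h and below it at 72 h.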

How the data were processed

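The authors deposited log2 values made with RMA (background correction, normalization between arrays and a summary per probe set), per the submitters' processing notes. For RMA's version and settings, and for the log base, the sources used here give nothing; base 2 was read from the range of the values. Titles gave each array its time and letter. The table holds 22810 probe sets; 64 controls and 3 with empty cells were dropped. The annotation at hand lists 1 gene for 13521 of the rest, several for 493 and none for 8729. A gene table of assembly TAIR10.1 served for names and gene order; no build is named, so no coordinates are given.

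limma 3.58.1 in R 4.3.3 (lmFit, contrasts, eBayes) fitted a mean for each time to the 27 arrays together, with Benjamini-Hochberg adjustment over 22743 probe sets, after a test on simulated data. Its p-values take arrays as independent and pool the spread over times. The design text ties each letter to 1 independent time-course, so the letters pair the samples: residual correlations had a median of 0.246 in 108 pairs with the same letter and -0.125 in 216 pairs with neither letter nor time in common. The paired fit adds the letter as a block. The alternatives tried are listed with their effect at the end.

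The members, gene lists, role groups and tests were chosen with earlier results of these data known. Any member with a listed gene could be named; array values are given for the 8 largest differences, the 4 highest members at 12 h, the 3 with the widest spread there, called members and role groups, with most unnamed ones given by range or left out. The 14 lists came from symbol patterns, 11 accidental matches were dropped once seen, and the probe set with the highest mean stood for its gene. Roles of genes known by locus number alone are general knowledge.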

Additional observations from a re-analysis of the deposited data

How the results depend on the processing

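The number of members was 121 at a threshold of 3 and 75 at 3.5, and lay between 103 and 179 with a threshold of 2.5, medians, centring, quantile normalization or a filter on dim probe sets. Centring and the GAPDH 3′ minus 5′ covariate, kept each count of called members. Leaving out 1 time-course gave 109 (without B) to 147 (without A) members, of which 98 and 109 were among the 121. For 72 h against 48 h the count of called members was 2 with array weights and 4 in a fit to the compared times alone, where 1.35% and 0.967% of all probe sets were called against 0.44% as reported, and it ran from 0 (without B and without C, with 5 and 4 members at an unadjusted p under 0.05, and 0.044% and 0.0572% of all called) to 2 without A (0.857%). For 96 h against 48 h it was 4 with array weights (3.97% of all probe sets), and limma called 0 after quantile normalization (1.21%) and 0 in a fit to the compared times alone (0.281%), with 12 and 17 at an unadjusted p under 0.05. Leaving out 1 time-course moved it from 0 (without B and without C, each with 4 at an unadjusted p under 0.05, and 0.119% and 0.044% of all probe sets called) to 8 (without A, 3.43%). For the F test over the later times the paired fit with the letter as a block gave 3, array weights 19 and the compared times alone 4, against 6.72%, 8.9% and 2.28% of all probe sets, and leave-outs ran from 0 (without B, with 2 at an unadjusted p under 0.05 and 0.286% of all called) to 23 (without A, 7.58%). The block changed no other count. The causes of these shifts were not tested. The smaller fits also hold fewer arrays. With 3 arrays a time, and 50.7% of all probe sets at a mean below 1 at 0 h, small differences may have gone uncalled.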

Other observations

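Members without a role group also kept their own time patterns. AT1G05340, a small cysteine-rich membrane protein gene, stood at 1.20, 1.44 and 2.44 at 0 h in time-courses A, B and C, at 5.72, 6.47 and 6.97 at 12 h and at 1.04, 1.22 and 1.59 at 24 h. It was high again at 36 h in B and C (3.03 and 3.40, against 1.19 in A) and at 96 h in A (2.73, against 0.68 in both others), the same order of time-courses as in the small heat shock genes AT1G53540 and AT2G29500. In all, 4 of the 121 members stood at least 2 above their own 0 h array at 36 h in both B and C and less than 1 above it in A. AT1G05340 was not among these 4, and 3 of the 4 were among the 11 with a 12 h difference under 1 in A. The share of all probe sets with this pattern was not counted, so the 4 cannot be set against a background. The 11 were also described on arrays that picked the members.

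AT5G35735, which encodes a membrane protein of the DOMON and cytochrome b561 type, stood at 5.94, 6.20 and 6.50 at 0 h, at 9.98, 8.85 and 9.15 at 12 h and at 5.79, 5.15 and 5.41 at 24 h. From 36 h on its means lay below its start, at 5.01, 4.43 and 4.36 at 36 h and 4.3, 4.55 and 4.6 at 48 h.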
